A study of Mus musculus with 4 samples.

Results

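The genes described here are 10 genes of androgen synthesis and hormone output linked to fetal Leydig cells, the steroid-producing cells of the embryonic testis. They were taken by symbol from the 40999 genes of the count tables. Not all of them are markers of these cells, since Hsd17b3, Hsd3b6, Fdx1 and Fdxr are also or mainly known from other cells or stages. They are Star, Cyp11a1, Cyp17a1, Hsd3b1, Hsd3b6, Hsd17b3, Insl3, Fdx1, Fdxr and Ren1. In these libraries all 10 were higher at E12.5 than at E11.5, and 6 of them were higher again at E13.5. Hsd3b6 alone of the 10 was lower at E13.5 and lower again at E14.5. At the largest preset spread tried, some of the calls at E12.5 and all of those at E13.5 and E14.5 were lost.

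Fetal Leydig cells appear between the testis cords shortly after Sertoli cells differentiate, and they masculinise the male embryo. STAR moves cholesterol into the mitochondrion, where CYP11A1 cuts its side chain to give pregnenolone with electrons that FDXR passes on through FDX1. CYP17A1 and the 3β-hydroxysteroid dehydrogenases then convert pregnenolone to androstenedione, and HSD17B3 reduces androstenedione to testosterone. In the fetal mouse testis this last step is known to take place mainly in Sertoli cells, while in the adult testis it takes place in Leydig cells. INSL3 is a peptide hormone of Leydig cells that acts on the gubernaculum through its receptor RXFP2, and renin, the product of Ren1, is the protease that starts the angiotensin cascade and is also made in fetal gonads and adrenals.

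Total RNA was profiled in gonads of wild-type C57BL/6J mouse embryos on each day from E11.5 to E14.5. Each time point was 1 library made from XX and XY gonads pooled from 2 litters, so a level in a library averages over both sexes and no value has a replicate. The mesonephros, the embryonic kidney beside the gonad, was kept at E11.5 and removed at the later time points. The tables held 25593453 to 31752562 counts per library, and a count of 3, the limit that a count of 0 allows, was 0.0945 to 0.117 CPM, a gene's counts relative to the library total. Levels across libraries are given as CPM scaled by TMM, a scaling on the bulk of genes, over the 4 libraries together. The TMM factor was 0.597 at E14.5 and 1.10 to 1.25 in the other libraries. Levels between genes are given as the deposited TPM, which corrects for exon length. In such pools, fewer cells of a type and less RNA per cell cannot be told apart.

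The 2 genes of the pair Hsd3b1 and Hsd3b6 lie next to each other in the 3β-hydroxysteroid dehydrogenase cluster, and their opposite courses after E12.5 rest on reads being told apart. Their GENCODE coding sequences, 1122 bases each, were 90.0% identical with 112 substitutions. The 120 aligned coding bases with the most differences, coding positions 42 to 161 of both, are shown 5′ to 3′ with the 25 differing bases in capitals.
Hsd3b1: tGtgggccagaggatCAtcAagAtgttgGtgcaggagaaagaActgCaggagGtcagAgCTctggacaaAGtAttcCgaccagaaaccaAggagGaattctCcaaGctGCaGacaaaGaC
Hsd3b6: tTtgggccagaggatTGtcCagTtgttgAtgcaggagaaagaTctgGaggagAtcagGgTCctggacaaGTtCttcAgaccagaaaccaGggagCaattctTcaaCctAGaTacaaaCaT
No stretch of 100 bases of the Hsd3b1 transcript (0 of 1756) occurred in the transcripts of another gene, and 3.29% of those of Hsd3b6 did, in Hsd3b2 or Hsd3b3. At 50 bases these shares were 4.98% and 16.0%, so short reads of Hsd3b6 could be placed on more than 1 gene, and how reads with several positions were counted is not given in the sources used here.

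The 250 bases upstream of the 2 start sites are shown for the same reason, since the pair diverged more there than in the coding sequence. They are RefSeq sequences of the mm10 assembly (GRCm38.p6) on the minus strand, from chr3:98859795-98860044 for Hsd3b1 and chr3:98814444-98814693 for Hsd3b6, with a CCAAT motif in capitals.
Hsd3b1: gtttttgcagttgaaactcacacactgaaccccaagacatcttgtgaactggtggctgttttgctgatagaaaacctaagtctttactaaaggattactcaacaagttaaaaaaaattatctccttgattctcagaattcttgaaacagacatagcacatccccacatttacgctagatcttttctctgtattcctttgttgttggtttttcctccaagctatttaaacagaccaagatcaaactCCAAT
Hsd3b6: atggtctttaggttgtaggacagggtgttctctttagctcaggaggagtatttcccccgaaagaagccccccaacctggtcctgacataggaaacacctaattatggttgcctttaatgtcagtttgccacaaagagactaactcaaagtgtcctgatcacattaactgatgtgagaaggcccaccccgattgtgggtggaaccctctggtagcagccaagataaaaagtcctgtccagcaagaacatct
Aligned over 274 columns, the 2 windows were 46.0% identical, against 90.0% for the coding sequences.

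Motifs were searched on both strands of the 9 upstream windows that RefSeq gave for 8 of the 10 genes, and Star and Cyp17a1 had no entry. CCAAT was in 3 of the 9 windows (Hsd3b1, Cyp11a1 and Fdxr) and in 33.9% of all 32851 windows. TATAAA was in 1 of the 9, Ren1 at positions −29 to −24 from the start site, and in 12.4% of all windows. AAGGNCA, a form of the site of NR5A1, the nuclear receptor of steroid-producing cells, was in 0 of the 9 and in 17.5% of all windows, and the cAMP response element TGACGTCA was in 0 of the 9 and in 1.55% of all. A further form, CAAGGNC, which overlaps the first form by 6 letters, was searched only after the first had given no match and the windows had been read. It was in 4 of the 9 windows (Insl3, Ren1, Fdx1 and Fdxr) and in 15.0% of all windows, and because it was chosen in that way the count is a description of these letters only. Insl3 held it at 2 places, shown in capitals within 30 bases of the plus strand, at chr8:71689104-71689133 (positions −137 to −131) and chr8:71689184-71689213 (positions −57 to −51).
Insl3 distal: ggagaggacttCAAGGTCccaagctggaca
Insl3 proximal: tgtgttcccgcCAAGGCCcatgggcggcgc

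Star and Cyp11a1, the first steps of the pathway, were already present at E11.5 and rose by E12.5 and again by E13.5. Star (mm10 chr8:25808513-25815982, plus strand, 7 exons) had 171, 1003, 3510 and 2473 counts in order of age from E11.5 to E14.5, or 4.99, 32.0, 88.7 and 131 TMM-scaled CPM. Cyp11a1 (chr9:58015017-58027023, plus strand, 9 exons) had 233, 1049, 7439 and 6026 counts, or 6.80, 33.5, 188 and 320 TMM-scaled CPM. Both genes were lowest at E11.5 and highest at E14.5 on this scale (by TPM both were highest at E13.5). Star was 6.41-fold higher at E12.5 than at E11.5 (log2 fold change 2.68, 95% exact interval 2.45 to 2.92) and 2.77-fold higher at E13.5 than at E12.5 (1.47, 1.37 to 1.57). Cyp11a1 was 4.92-fold higher in the first of these comparisons (log2 fold change 2.30, 2.09 to 2.51) and 5.61-fold higher in the second (2.49, 2.40 to 2.58). All intervals here cover counting error only.

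Fdx1 and Fdxr, the electron carriers that CYP11A1 needs, had the highest levels of the 10 genes at E11.5 and changed less than the P450 genes after E12.5. Fdx1 (chr9:51943307-51963616, minus strand, 5 exons) had 548, 1295, 2970 and 1272 counts in order of age, or 16.0, 41.3, 75.1 and 67.6 TMM-scaled CPM. Fdxr (chr11:115268024-115277107, minus strand, 12 exons) had 376, 1516, 2358 and 1314 counts, or 10.98, 48.4, 59.6 and 69.8 TMM-scaled CPM. The carriers serve every mitochondrial P450, and both were called higher only at E12.5, Fdx1 by 2.58-fold (log2 fold change 1.37, 1.22 to 1.52) and Fdxr by 4.41-fold (2.14, 1.98 to 2.31). At E13.5 neither reached the 2-fold limit, with log2 fold changes of 0.86 (0.77 to 0.95) for Fdx1 and 0.30 (0.21 to 0.39) for Fdxr.

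Cyp17a1, the enzyme that commits pregnenolone and progesterone to androgens, went from near the counting limit to the most abundant of the 10 genes. Cyp17a1 (chr19:46667165-46673000, minus strand, 8 exons) had 5, 1437, 10503 and 8720 counts, or 0.146, 45.8, 266 and 464 TMM-scaled CPM. It was 314-fold higher at E12.5 than at E11.5, and the 5 counts at E11.5 left a wide interval of 134-fold to 969-fold. It was 5.79-fold higher again at E13.5 (log2 fold change 2.53, 2.45 to 2.61). At E12.5 its log2 fold change was the fourth highest of 19215 genes tested.

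Hsd3b1 and Hsd3b6 encode 3β-hydroxysteroid dehydrogenase isoforms. Hsd3b6 is known in the adult testis as the isoform of adult Leydig cells. Hsd3b1 (chr3:98842356-98859794, minus strand, 6 exons) had 30, 1616, 5171 and 3636 counts, or 0.876, 51.5, 131 and 193 TMM-scaled CPM. Hsd3b6 (chr3:98805504-98814443, minus strand, 4 exons) had 132, 311, 123 and 24 counts, or 3.85, 9.92, 3.11 and 1.28 TMM-scaled CPM. On this scale Hsd3b1 was lowest at E11.5 and highest at E14.5 (by TPM it was highest at E13.5), and Hsd3b6 was highest at E12.5 and lowest at E14.5. Hsd3b1 was 58.9-fold higher at E12.5 than at E11.5 (log2 fold change 5.87, 5.36 to 6.45), against 2.58-fold for Hsd3b6 (1.36, 1.07 to 1.67). At E13.5 Hsd3b1 was 2.53-fold higher than at E12.5 (1.34, 1.26 to 1.42), while Hsd3b6 was 3.20-fold lower (−1.68, −1.99 to −1.37). At E14.5 Hsd3b6 was 2.41-fold lower than at E13.5 (−1.27, −1.96 to −0.63) and 7.71-fold lower than at E12.5 (−2.94, −3.61 to −2.35).

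Other Hsd3b paralogs, apart from Hsd3b7, added few counts. Hsd3b2 had 2 to 12 counts per library, Hsd3b3 had 1 to 7, Hsd3b5 had 1 to 4, and Hsd3b4 had 0 in every library. Hsd3b7, an enzyme of bile acid synthesis, had 124 to 213 counts and was called in none of the 4 comparisons.

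Hsd17b3, the testosterone-forming enzyme, was called higher at E12.5 and in no later comparison. Hsd17b3 (chr13:64058274-64089264, minus strand, 13 exons) had 23, 572, 885 and 548 counts, or 0.672, 18.2, 22.4 and 29.1 TMM-scaled CPM. It was 27.2-fold higher at E12.5 than at E11.5 (log2 fold change 4.76, 4.16 to 5.43) and stood at 0.29 (0.14 to 0.45) for E13.5 versus E12.5 and 0.40 (0.24 to 0.55) for E14.5 versus E13.5. Amh, the Sertoli cell hormone, had 45, 8900, 10299 and 5683 counts and likewise was called only at E12.5. The share of Hsd17b3 in the counts of Hsd17b3 plus Amh was 6.04% (5.57 to 6.54) on the first day after E11.5, 7.91% (7.42 to 8.43) on the next and 8.80% (8.10 to 9.53) on the last. Its share in the counts of Hsd17b3 plus Cyp17a1 was 28.5% (26.5 to 30.5), 7.77% (7.29 to 8.28) and 5.91% (5.44 to 6.41) in the same libraries. From E12.5 to E14.5 the ratio of Hsd17b3 to Amh therefore moved less than its ratio to Cyp17a1. Shares of this kind are taken within a library, so no scaling between libraries enters them. On the TMM scale, log2 fold changes at E14.5 versus E12.5 were 0.69 for Hsd17b3, 0.10 for Amh and 3.35 for Cyp17a1. Fdx1 (0.72) and Fdxr (0.54) lay closer to Hsd17b3 than Amh did, and which cells made Hsd17b3 was not tested.

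Insl3, the peptide hormone, was the lowest of the 10 genes in CPM at E11.5 and E12.5. Insl3 (chr8:71689252-71690577, plus strand, 2 exons) had 0, 47, 280 and 247 counts, or 0, 1.50, 7.08 and 13.1 TMM-scaled CPM, and the count of 0 at E11.5 allows up to 0.0876 TMM-scaled CPM. Insl3 was at least 17.1-fold higher at E12.5 than at E11.5, set against a floor of 3 counts in that library. It was 4.72-fold higher at E13.5 than at E12.5 (log2 fold change 2.24, 1.79 to 2.72). The gene lies within Jak3, which encodes a cytokine receptor kinase, on the same strand. Of its 2 exons, the first of 181 bases was its own and the second of 406 bases, chr8:71690172-71690577, was wholly shared with exons of Jak3, which had 251, 402, 420 and 127 counts. Whether reads in shared exons were counted is not given in the sources used here. The level of Insl3 against the other genes is therefore uncertain, in CPM as well as per length.

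Ren1, the renin gene, followed a course close to that of Hsd3b1. Ren1 (chr1:133350674-133360320, plus strand, 9 exons) had 20, 1112, 4318 and 3474 counts, or 0.584, 35.5, 109 and 185 TMM-scaled CPM. It was 60.8-fold higher at E12.5 than at E11.5 (log2 fold change 5.92, 5.29 to 6.64) and 3.07-fold higher at E13.5 than at E12.5 (1.62, 1.52 to 1.72). By log2 fold change at E12.5, Ren1 and Hsd3b1 stood at ranks 32 and 33 of the 19215 genes tested.

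**Figure D1:**
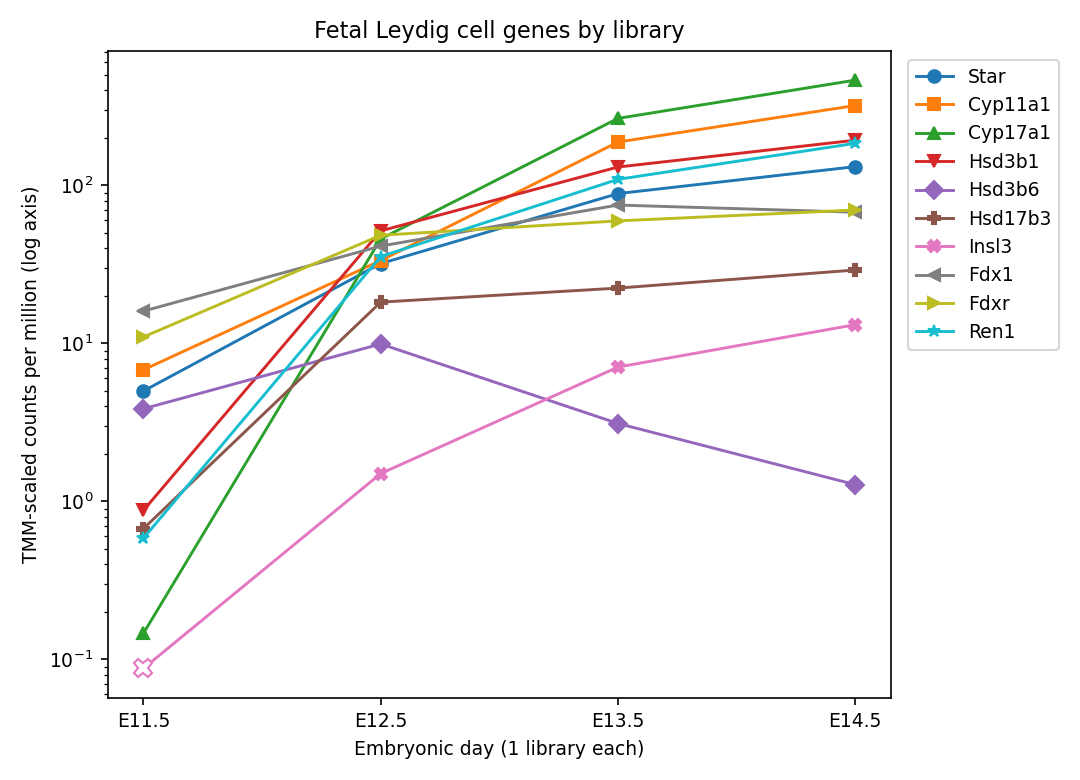
Level of each of the 10 genes in the 4 libraries, as TMM-scaled CPM on a log axis against embryonic day, with 1 library per point and no error bars because there are no replicates. The open marker puts Insl3, with 0 counts at E11.5, at the floor of 3 counts, and Cyp17a1 climbs from 0.146 to 464 while Hsd3b6 falls from 9.92 at E12.5 to 1.28 at E14.5.

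The comparison of E12.5 with E11.5 asks which genes changed as the gonads took on a sex. All 10 genes were called higher, where a call is a difference of at least 2-fold at a Benjamini-Hochberg false discovery rate of at most 0.05 in the exact test of edgeR with the dispersion set beforehand. Of all 19215 genes tested, 14.3% were called, 7.16% higher and 7.15% lower. The median log2 fold change of the 10 was 3.72, against −0.004 over all genes tested. The test compares 2 libraries, not 2 conditions, because each time point had 1 library. The libraries also differed in tissue: 5 of 7 marker genes of mesonephros and nephric duct were called lower at E12.5 (among them Pax2, Wnt9b, Six2 and Cdh16), and their list summed to 142.5 TMM-scaled CPM at E11.5 and 17.9 to 24.9 in the later libraries. With the preset coefficient of variation raised to 0.4, 5 of the 10 were still called (Cyp17a1, Hsd3b1, Hsd17b3, Insl3 and Ren1).

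Cell types other than Leydig cells moved in the same comparison. Of 7 Sertoli cell genes 6 were called higher, with Amh 216-fold higher, and Sox9 was not called. Of 6 pregranulosa cell genes, which mark the ovary, 4 were called higher (Foxl2, Fst, Bmp2 and Irx3), as were 5 of 5 germ cell genes, while 0 of 5 endothelial genes were called. The part that the change in tissue had in the 10 rises was not tested.

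The comparison of E13.5 with E12.5 separated the genes. Star, Cyp11a1, Cyp17a1, Hsd3b1, Insl3 and Ren1 were called higher, Hsd3b6 was called lower, and Hsd17b3, Fdx1 and Fdxr were not called. Over all 19152 genes tested, 1.88% were called, 1.27% higher and 0.606% lower. The median log2 fold change of the 10 was 1.41, against 0.002 over all genes. None of the Sertoli, germ, pregranulosa and endothelial cell genes was called in this comparison, and 2 of 6 mesonephros markers tested, Cdh16 among them, were called lower. The calls depended on the preset spread, with 4 of 7 left at a coefficient of variation of 0.2 (Cyp11a1, Cyp17a1, Insl3 and Ren1) and 0 at 0.4.

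The comparison of E14.5 with E13.5 called 0 of the 10 genes higher and 1, Hsd3b6, lower, where 4.87% of 18992 genes tested were called, 4.28% higher and 0.595% lower. In edgeR's exact test 6 genes were higher at an unadjusted p under 0.05, and 4 of these (Cyp11a1, Cyp17a1, Insl3 and Ren1) also met the false discovery rate without reaching 2-fold. On the TMM scale the log2 fold changes of these 4 were 0.79 (0.74 to 0.84) for Cyp11a1, 0.82 (0.78 to 0.86) for Cyp17a1, 0.91 (0.66 to 1.16) for Insl3 and 0.78 (0.71 to 0.84) for Ren1. Star and Hsd3b1 stood at 0.58 each, Fdxr at 0.25 and Fdx1 at −0.13. The call of Hsd3b6 rested on 24 against 123 counts and was lost at a coefficient of variation of 0.2 or 0.4.

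The direction of these small differences depended on the scaling. Scaling by total counts put the median log2 fold change of all genes at −1.07 at E14.5 versus E13.5, against 0.005 under TMM, and split the calls over all genes into 261 higher and 11124 lower, against 812 and 113 under TMM. Under total counts the log2 fold changes of all 10 genes were below 0, from −0.17 for Insl3 to −2.34 for Hsd3b6, and 2 genes (Hsd3b6 and Fdx1) were called lower. The ratio of deposited TPM was also below 0 for all 10, from −0.73 for Insl3 to −2.91 for Hsd3b6. Hsd3b6 was lower and Insl3 had the highest value of the 10 under each of these scalings, as under TMM.

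**Figure D2:**
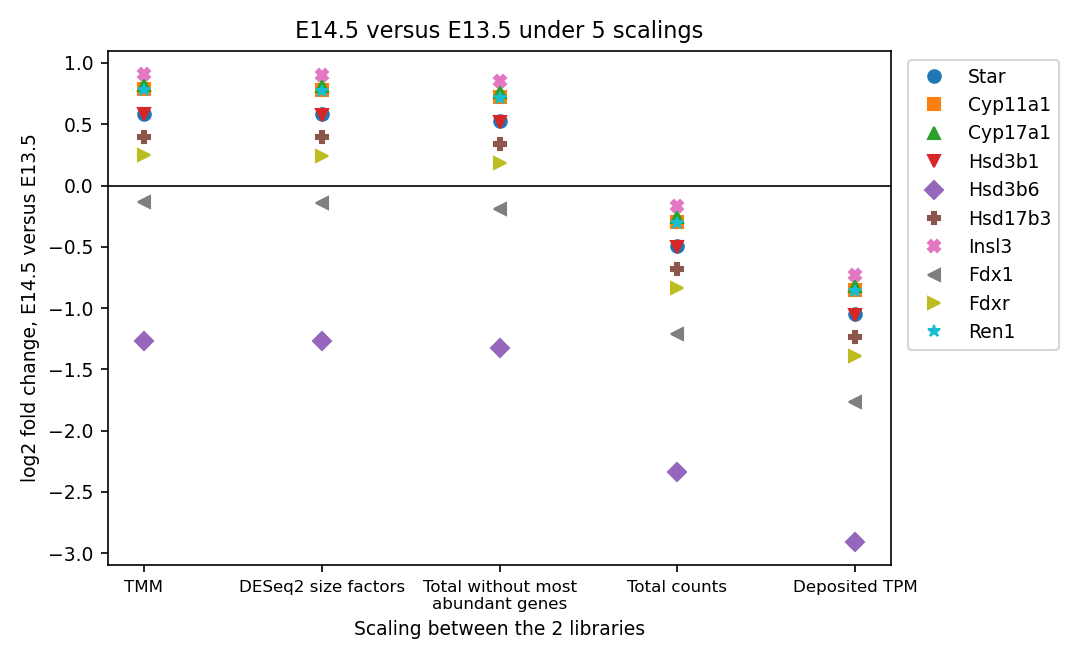
Log2 fold change of each of the 10 genes at E14.5 versus E13.5 under 5 scalings between the libraries, with 1 marker per gene. Star, Cyp11a1, Cyp17a1, Hsd3b1, Hsd17b3, Insl3, Fdxr and Ren1 lie above 0 under TMM, DESeq2 size factors and total counts without the most abundant genes, and below 0 under total counts and deposited TPM, while Hsd3b6 and Fdx1 lie below 0 under all 5.

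Over the longer interval, E14.5 versus E12.5, the same 6 genes were called higher as at E13.5 and Hsd3b6 was called lower, where 7.9% of 18704 genes tested were called, 6.45% higher and 1.45% lower. This comparison shares its libraries with the previous ones and is no separate evidence. Cyp17a1 was 10.2-fold higher (log2 fold change 3.35, 3.27 to 3.43), Cyp11a1 was 9.65-fold higher (3.27, 3.18 to 3.37) and Insl3 was 8.83-fold higher (3.14, 2.69 to 3.62). Ren1 was 5.25-fold, Star 4.14-fold and Hsd3b1 3.78-fold higher on the TMM scale. The sizes depended on the scaling, with log2 values for Ren1, Star and Hsd3b1 of 2.39, 2.05 and 1.92 under TMM, 1.34, 1.001 and 0.87 under total counts and 0.89, 0.55 and 0.42 by deposited TPM. Hsd17b3, Fdx1 and Fdxr were not called, at log2 fold changes of 0.69, 0.72 and 0.54. Scaling by total counts, which put the median of all genes at −1.04 against 0.008 under TMM, left 6 of the 7 calls (Hsd3b1 was no longer called) and put Hsd17b3, Fdx1 and Fdxr at −0.36, −0.33 and −0.51. Calls over all genes then split into 379 higher and 9854 lower, against 1206 and 272 under TMM. At a coefficient of variation of 0.4, 0 of the 7 calls were left.

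**Figure D3:**
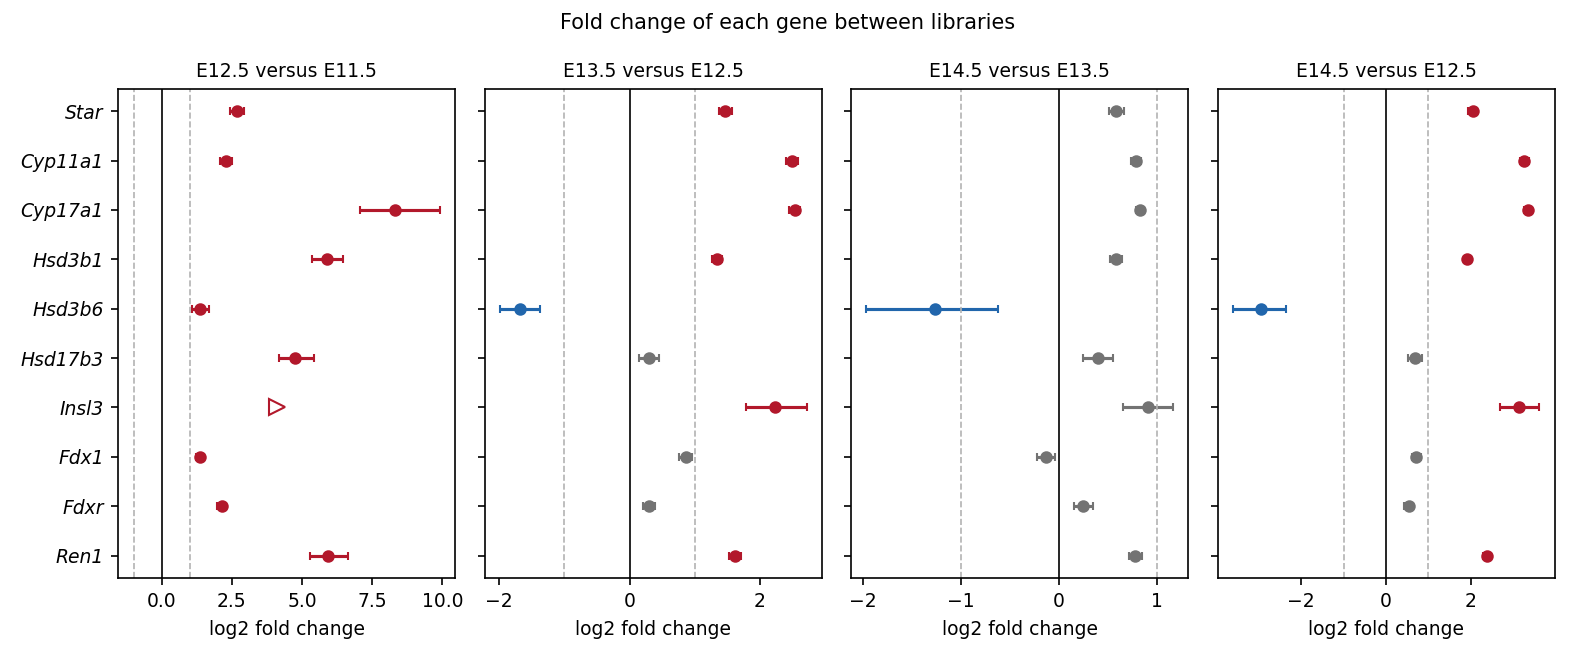
Log2 fold change on the TMM scale of each gene in the 4 comparisons (1 panel each, with its own horizontal range), with bars for the 95% exact interval of counting error. Red is called higher, blue called lower and grey not called, dashed lines mark 2-fold and the open triangle is the lower bound for Insl3. All 10 genes are red at E12.5 versus E11.5, and Hsd3b6 is blue in the other 3 panels, where under total counts the genes with grey points at E14.5 lie below 0.

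Within a library the order of the genes by TPM changed with age. At E11.5 the highest were Fdxr (8.45 TPM), Fdx1 (7.79), Cyp11a1 (5.92) and Hsd3b6 (3.30), and Cyp17a1 was at 0.122. At E12.5 the first 4 were Hsd3b1 (48.4 TPM), Ren1 (46.9), Cyp17a1 (46.8) and Fdxr (45.3), which lay close together. At E13.5 Cyp17a1 was first (297 TPM), followed by Cyp11a1 (218), Ren1 (158) and Hsd3b1 (134), and this order was the same at E14.5 (169, 121, 86.9 and 64.7). Cyp17a1 made up 0.416%, 15.8%, 29.2% and 32.0% of the summed TPM of the 10 genes in order of age.

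Shares of counts between pairs of the genes need no scaling between libraries. The share of Hsd3b6 in the counts of Hsd3b6 plus Hsd3b1 was 81.5% (95% exact interval 74.6 to 87.1) at E11.5, 16.1% (14.52 to 17.86) on the next day, 2.32% (1.94 to 2.77) on the third and 0.656% (0.421 to 0.974) on the last. No 2 of these intervals overlap. The share of Cyp17a1 in the counts of Cyp17a1 plus Cyp11a1 was 2.10% (0.686 to 4.83) at E11.5 and then 57.8% (55.8 to 59.8), 58.5% (57.8 to 59.3) and 59.1% (58.3 to 59.9). From E12.5 on, the ratio of these 2 enzymes, which act in sequence, stayed within overlapping intervals.

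Some other pairs kept shifting and some held. The share of Star in Star plus Cyp11a1 went from 48.9% (46.7 to 51.1) at E12.5 to 32.1% (31.2 to 32.9) and 29.1% (28.1 to 30.1). Hsd3b1 in Hsd3b1 plus Cyp17a1 made 52.9% (51.1 to 54.7), 33.0% (32.3 to 33.7) and 29.4% (28.6 to 30.2) from E12.5 to E14.5. Ren1 in Ren1 plus Cyp17a1 made 43.6% (41.7 to 45.6), 29.1% (28.4 to 29.9) and 28.5% (27.7 to 29.3), with overlapping intervals at E13.5 and E14.5. Insl3 in Insl3 plus Cyp17a1 made 3.17% (2.34 to 4.19), 2.60% (2.31 to 2.92) and 2.76% (2.43 to 3.12), with intervals that overlap throughout. Between the electron carriers the share went up and down, with Fdx1 making 59.3%, 46.1%, 55.7% and 49.2% of Fdx1 plus Fdxr in order of age.

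**Figure D4:**
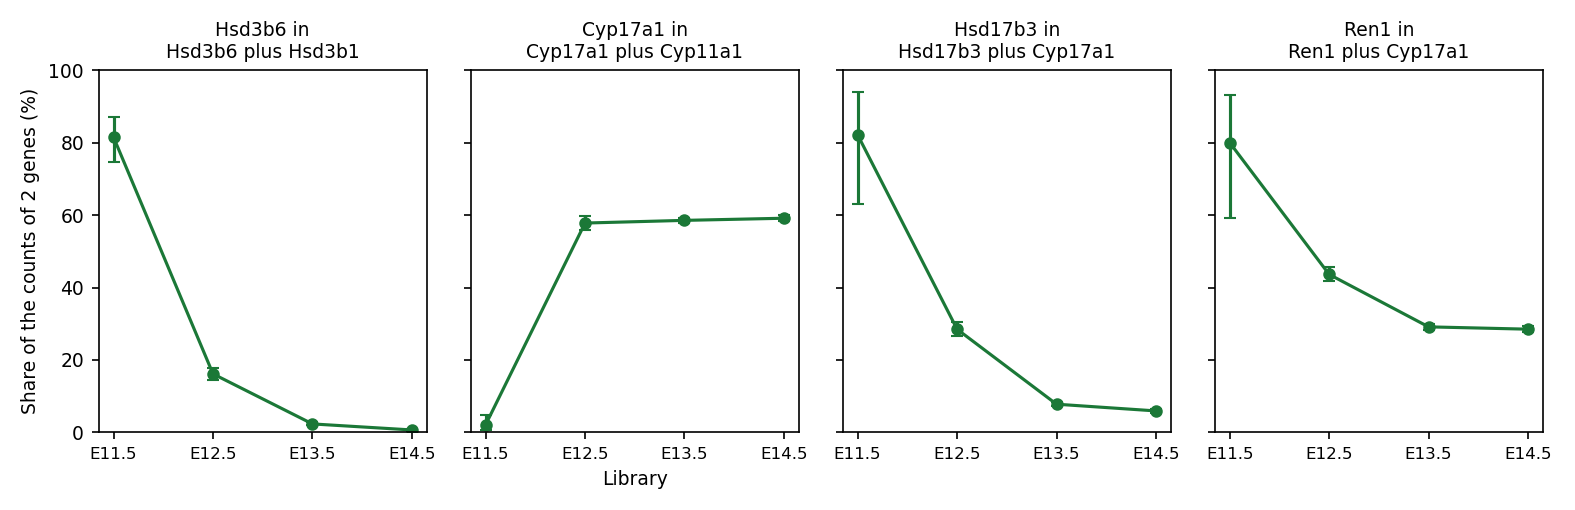
Share of the first gene in the summed counts of 2 genes, in percent, for 4 pairs in each library, with bars for the 95% exact interval of counting error. Hsd3b6 drops from 81.5% to 0.656% against Hsd3b1, and Cyp17a1 holds 57.8% to 59.1% against Cyp11a1 from E12.5 on.

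For other genes of steroid supply and conversion, the count called at E12.5 was near the background of 14.3% of all genes and shows nothing about the list. Of a list of 19 such genes, 18 were in the tables, and 2 of 17 tested were called higher at E12.5 versus E11.5, 1 at E13.5 versus E12.5 and 1 at E14.5 versus E13.5, with 0 lower in each. At E14.5 versus E12.5, 3 of 16 tested were called higher (Scarb1, Hsd17b1 and Hsd17b7), where 6.45% of all genes were. Scarb1, the receptor for lipoprotein cholesterol, had 926, 2368, 5265 and 3432 counts and was 2.79-fold higher at E12.5 (log2 fold change 1.48, 1.37 to 1.59). Hsd17b1, best known for estradiol formation, had 10, 80, 198 and 240 counts and was 8.74-fold higher at E12.5 (3.11, 2.18 to 4.24) and 2.58-fold higher at E14.5 than at E13.5 (1.37, 1.09 to 1.65), where total counts gave 0.29 and no call. Hsd17b7, an enzyme of cholesterol synthesis, was called higher at E13.5 (1.02, 0.87 to 1.17). Cyp19a1, the aromatase that turns androgens into estrogens, had 1 to 4 counts per library.

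Regulators and receptors of Leydig cells split between early and later change. At E12.5, 6 of 18 were called higher and 1 lower. The transcription factors Nr5a1 (log2 fold change 1.34) and Gata4 (1.45) and the hedgehog receptor Ptch1 (1.17) were called higher at E12.5 and in no later comparison. The hormone receptors behaved differently: Lhcgr, the luteinising hormone receptor, had 17, 204, 807 and 603 counts, and Prlr, the prolactin receptor, had 30, 506, 1879 and 1367. Both were called higher at E12.5 (3.70 and 4.20) and again at E13.5 (1.65 and 1.56), where Thbs2 was the third gene of the list to be called. Rxfp2, the INSL3 receptor, was called lower at E12.5 (−2.20, −2.49 to −1.93), where the mesonephros markers were lower too, and the part of the removed tissue in this was not tested.

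Among 8 other genes of the renin-angiotensin system, Agt, which encodes the substrate of renin, rose with Ren1. Agt had 0, 64, 256 and 162 counts, was at least 23.3-fold higher at E12.5 than at E11.5 and was 3.17-fold higher at E13.5 than at E12.5 (log2 fold change 1.66, 1.26 to 2.08). The peptidase gene Enpep (3.15) and the receptor gene Agtr1a (1.71) were also called higher at E12.5. Agtr2, the second angiotensin receptor gene, had 1588, 229, 200 and 536 counts, called lower at E12.5 (−2.67, −2.87 to −2.47) and higher at E14.5 versus E13.5 (2.51, 2.28 to 2.75). Ace, which encodes the converting enzyme, had 31 to 42 counts per library and was not called.

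Several of the 10 genes are also made by the adrenal cortex, so its genes were read in the same libraries. The list of 6 summed to 5.49, 4.37, 10.3 and 20.6 TMM-scaled CPM in order of age, against 44.9, 318, 950 and 1474 for the 10 Leydig genes. Cyp11b1, which makes corticosterone, had 5, 1, 80 and 147 counts, and Cyp21a1, the 21-hydroxylase, had 8, 1, 45 and 65. Both were called higher at E13.5 and again at E14.5, the latter by log2 fold changes of 1.97 (1.57 to 2.38) and 1.62 (1.05 to 2.20), which under total counts were 0.89 and 0.54 and no longer called. Cyp11b1 made 0.0695% of the counts of Cyp11b1 plus Cyp17a1 at E12.5 and 0.756% and 1.66% on the days that followed. Cyp11b2 had 0 to 9 counts, and Mc2r, the corticotropin receptor gene, had 57 to 145 and was not called. Mrap, which encodes the accessory protein of that receptor, had 4, 21, 62 and 50 counts and was called higher at E12.5 versus E11.5 (log2 fold change 2.48, 0.95 to 4.52) and at E14.5 versus E12.5 (1.99, 1.24 to 2.81). Akr1b7 was called higher at E14.5 versus E12.5 (1.50, 0.88 to 2.15). In that comparison 4 of 5 adrenal genes tested were called higher, against 6.45% of all genes tested. These calls are on the TMM scale, and total counts put the median log2 fold change of all genes there at −1.04, against 0.008. The part of adrenal RNA in the levels of the 10 genes was not tested. The list of adult Leydig cell markers held 2 genes, and both were near the counting limit, with 2 to 8 counts for Hsd11b1 and 0 or 1 for Sult1e1. Hsd3b6 and Hsd17b3, which are also known from adult Leydig cells, were not on that list and had 24 to 311 and 23 to 885 counts.

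**Figure D5:**
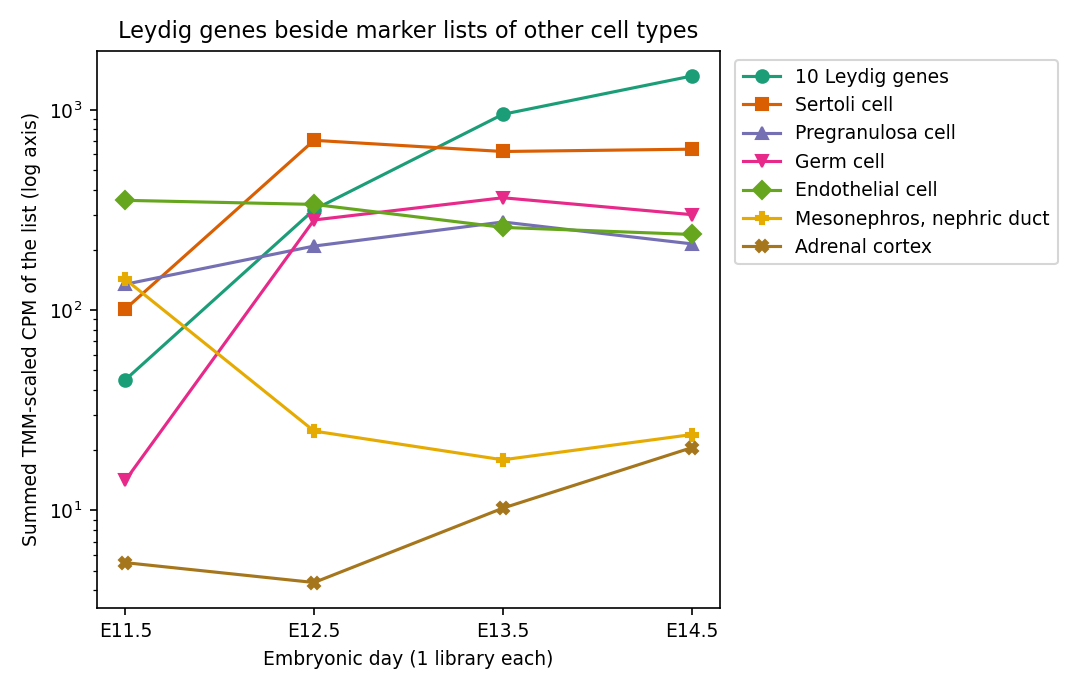
Summed TMM-scaled CPM of the 10 Leydig genes and of 6 marker lists, on a log axis against embryonic day, with 1 library per point and no error bars. The 10 genes climb from 44.9 to 1474, the Sertoli list stays between 619.4 and 704.3 from E12.5 on, and the mesonephros list drops from 142.5 to 24.9 between the first 2 libraries. By summed deposited TPM the 10 genes stood at 297, 1017 and 527 from E12.5 to E14.5, so the last step of the climb depends on the scaling.

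Genes with a course like that of the leading enzymes were found by the root mean square difference of centred log2 levels over the 4 libraries, among 14070 genes with at least 100 counts in some library. The 4 points of a course are single libraries, so likeness is a description. Nearest to Cyp17a1 were Ren1 (1.20), Hsd3b1 (1.35), Insl3 (1.47), the Sertoli hormone gene Amh (1.51) and Defb19 (1.53). Nearest to Cyp11a1 were Bcan (0.24), Clps (0.25), the meiotic gene Sycp1 (0.30), Serpina3a (0.37) and Ephx1 (0.40), with Star in place 13 (0.49). Nearest to Star were Spata21 (0.05), Rims4 (0.10), the adult globin gene Hbb-bs (0.11), 4833422C13Rik (0.12) and Ephx1 (0.12). Genes of germ cells and red blood cells thus stood beside steroidogenic ones on this measure. Among the 10 genes, Ren1 was the nearest of all 14070 genes to Hsd3b1 (0.20).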

How the data were processed

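Pooled XX and XY mouse gonads were profiled with 1 library per time point, each mapped to its day from E11.5 to E14.5 by the deposited labels. The authors depleted ribosomal RNA, built stranded libraries with unique molecular identifiers, aligned reads to mm10 with STAR, removed duplicates with UMI-tools and deposited read counts per gene from featureCounts. The TPM and RPKM values deposited by the authors were computed from those counts and exon lengths, which was checked in every file; RPKM was not used further. Tool versions, annotation release and treatment of reads with several positions are not given in the sources used here.

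Each pair of libraries was tested with edgeR 4.0.16 (R 4.3.3): filterByExpr, TMM scaling and the exact test at a preset dispersion of 0.01 (biological coefficient of variation 0.1), since no time point had a replicate. A gene was called at an absolute log2 fold change of at least 1 and a Benjamini-Hochberg false discovery rate of at most 0.05, and the prior count was 0.125. Intervals are exact Clopper-Pearson 95% intervals of the share of counts, and cover counting error only. Counts were also simulated for E13.5 versus E12.5 (19138 genes tested) at the same coefficient of variation of 0.1 that the test presets. Of well-counted genes, 28 of 67 changed 2-fold and 67 of 67 changed 4-fold were called. Because the spread was set equal to the one assumed, this checks the procedure only and gives no power for these pools, whose spread is unknown. Promoter windows are RefSeq (GRCm38.p6), and transcripts are GENCODE M21. Alternatives covered the dispersion, scaling (including DESeq2 1.42.0 size factors), filter, fold limit and prior count. Named genes are the 10 members, list genes where a list is reported and the 5 genes nearest in course to Star, Cyp11a1 and Cyp17a1. The members and lists were chosen with earlier results of these data known, and the motif CAAGGNC was added after the upstream windows had been read. Some genes of the lists are not reported here by name.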

Additional observations from a re-analysis of the deposited data

How the results depend on the processing

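Of the 10 Leydig genes, the number called at E12.5 versus E11.5 went from 10 to 5 at a coefficient of variation of 0.4 and to 8 at a log2 fold change limit of 2. The number was also 8 with at least 10 counts required in both libraries, a filter that left Cyp17a1 (5 counts at E11.5) and Insl3 (0 counts) untested. At E13.5 versus E12.5 it went from 7 to 4 at 0.2, to 0 at 0.4 and to 3 at the limit of 2. At E14.5 versus E13.5 it went from 1 to 0 at 0.2, at 0.4 and at the limit of 2, and to 2 under total counts. At E14.5 versus E12.5 it went from 7 to 0 at 0.4, and to 6 at the limit of 2 and under total counts. Under total counts 11 log2 fold changes turned negative. At E14.5 versus E13.5 these were Star −0.50, Cyp11a1 −0.29, Cyp17a1 −0.26, Hsd3b1 −0.50, Hsd17b3 −0.68, Insl3 −0.17, Fdxr −0.83 and Ren1 −0.30, and at E14.5 versus E12.5 Hsd17b3 −0.36, Fdx1 −0.33 and Fdxr −0.51. DESeq2 size factors, TMM over all 4 libraries and a prior count of 2 each left the direction and call of all 40 values as they were. So did total counts without the 10 most abundant genes of any library, 15 genes in all.

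Over all genes, the numbers called in the 4 comparisons, in the order used above, were 2749, 360, 925 and 1478. They were 1822, 54, 479 and 817 at a coefficient of variation of 0.2, 286, 1, 31 and 72 at 0.4, and 1230, 99, 359 and 557 at a log2 fold change limit of 2. Total counts gave 11385 and 10233 in the last 2 comparisons. The causes were not tested beyond what each setting changes by construction. With 1 library per time point, no library can be left out and biological spread cannot be measured. No paired analysis was possible because each time point had a single library.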
